A study of Mus musculus with 5 samples.

Results

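The colony-stimulating factors and their receptors are a set of 9 genes, chosen by name from the 46983 genes listed in each library. They are the ligand genes Csf1, Il34, Csf2 and Csf3 and the receptor genes Csf1r, Csf2ra, Csf2rb, Csf2rb2 and Csf3r. All 9 were found by symbol through their Ensembl identifiers. The study grew EO771 tumours, a mouse mammary carcinoma line, orthotopically in the mammary tissue of mice labelled C57/BL6. In the tumours of 2 libraries, called Treg-ablated, regulatory T (Treg) cells had been removed by diphtheria toxin, given as 2 doses of 50 µg/kg, and the sort followed on day 4. The tumours of 3 control libraries were untreated. The gate in both groups was CD45+ CD11B+ Ly6G- F4/80+, labelled tumour-associated macrophages. The allele that makes Treg cells sensitive to the toxin and the age of the mice are not given in the sources used here. The controls received no toxin, so toxin and Treg loss cannot be told apart. No source states that each library had its own mouse, so p-values measure only library-to-library spread, possibly technical.

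CSF-1 (encoded by Csf1) and IL-34 are separate ligands of 1 receptor tyrosine kinase, CSF1R, on which most tissue macrophages and many tumour macrophages depend for survival. GM-CSF (Csf2) binds a specific alpha chain (Csf2ra) that pairs with the common beta chain (Csf2rb), which also serves IL-3 and IL-5 and signals through JAK2 and STAT5. Mice carry a further beta chain gene, Csf2rb2, whose product pairs with the IL-3 receptor alpha chain. G-CSF (Csf3) acts through a single-chain receptor (Csf3r) and drives the production and release of neutrophils. In tumours these factors are known for setting the supply and state of macrophages, monocytes and neutrophils.

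Libraries held 13122668 to 20156835 counts. The gate genes were present at low levels. Across the 5 libraries Adgre1 (F4/80) had 5.73 to 9.87 CPM (counts divided by the scaled library total, times 1e6), Itgam (CD11b) 12.2 to 19.0 and Ptprc (CD45) 22.1 to 33.0. Ly6g, which the gate excludes, had 0 to 3 counts. Foxp3, the gene that defines Treg cells, had 1 and 5 counts in Treg-ablated and 3, 9 and 3 in control libraries, too few in these sorted cells to check the ablation. Fibroblast genes went against the label. A library's median over 20 fibroblast markers was 164 to 242 CPM, and over 23 mature macrophage markers 6.71 to 11.8 CPM. Over 13 epithelial tumour markers it was 0.302 to 1.07 CPM. Their sum was nonetheless 317 and 274 CPM in Treg-ablated and 309 to 335 in control libraries. Krt18 gave 64.5% to 66.5% of it, and 0 of 7 markers tested passed. The libraries are called by their label, and no member is assigned to a cell type.

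The beta chain genes are shown first because their likeness bears on their counts. Csf2rb (ENSMUSG00000071713, chromosome 15, 78325990 to 78351000, plus strand) and Csf2rb2 (ENSMUSG00000071714, chromosome 15, 78282517 to 78305603, minus strand) are neighbours on GRCm38. Their longest GENCODE coding sequences, of 2688 and 2634 bases, were identical at 95.2% of 2628 aligned positions. The first 90 coding bases of each follow, with bases that differ in capitals.
Csf2rb: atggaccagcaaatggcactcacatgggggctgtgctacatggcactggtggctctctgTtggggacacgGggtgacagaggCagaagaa
Csf2rb2: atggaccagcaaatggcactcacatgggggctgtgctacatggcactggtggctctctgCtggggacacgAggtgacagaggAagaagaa
Only 3 of these 90 bases differ. Over the whole transcripts the differences were spread widely enough to tell most reads apart: 3.31% of the 125-base windows of Csf2rb transcripts, the length of a read, were also found in Csf2rb2, and 4.84% of those of Csf2rb2 in Csf2rb. Their counts are uncertain to the extent that reads from shared windows were divided.

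RefSeq promoter windows (GRCm38.p6, 250 bases before to 50 after the RefSeq gene start) matched 5 members, Csf1, Csf2, Csf2ra, Csf2rb2 and Csf3r. The RefSeq start can differ from the Ensembl start of the genes counted here. The Csf2 and Csf2rb2 windows lay wholly upstream of the Ensembl genes, and the Csf3r window was shifted against its Ensembl start. Csf1r, Il34, Csf2rb and Csf3 were not matched. The windows of Csf2ra (chr19:61228369-61228668, minus strand) and Csf2rb2 (chr15:78305672-78305971, minus strand) are printed because they belong to the alpha and beta chains that are compared further on. Capitals mark GAGGAA or its reverse complement, a core bound by ETS factors such as the myeloid factor PU.1.
Csf2ra: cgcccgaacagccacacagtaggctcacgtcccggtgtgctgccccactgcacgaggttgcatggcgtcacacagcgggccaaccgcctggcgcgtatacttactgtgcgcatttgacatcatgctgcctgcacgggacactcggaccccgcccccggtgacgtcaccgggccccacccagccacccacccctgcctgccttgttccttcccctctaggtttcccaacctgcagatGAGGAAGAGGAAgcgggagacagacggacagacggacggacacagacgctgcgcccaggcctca
Csf2rb2: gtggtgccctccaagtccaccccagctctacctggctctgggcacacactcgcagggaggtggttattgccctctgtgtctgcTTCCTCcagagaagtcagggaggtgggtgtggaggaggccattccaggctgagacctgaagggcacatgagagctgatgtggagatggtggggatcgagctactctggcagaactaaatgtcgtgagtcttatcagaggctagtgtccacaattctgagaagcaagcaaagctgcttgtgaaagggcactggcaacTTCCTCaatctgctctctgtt
The Csf2ra window held 2 adjacent matches that did not overlap, close to the gene start, and the Csf2rb2 window held 2 on the opposite strand. Csf3r had 1 match, and Csf1 and Csf2 had 0. Of 32851 RefSeq promoter windows of this length, 28.3% held the motif on either strand. TTCNNNGAA, the palindromic element bound by STAT factors, was found in 1 of the 5 windows, that of Csf2rb2, and in 8.3% of all windows. The 2 motifs were searched separately, without regard to overlap. A match is a description of the letters only.

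The family did not move as a unit. Of 8 members tested with edgeR, Csf1r was lower, Csf3 and Csf2ra were higher and 5 did not pass an adjusted p of 0.05. That is 2 higher, 1 lower and 3 in either direction, where 13.5%, 12.3% and 25.8% of all 14580 genes tested were called. The groups did not overlap for 2 higher and 2 lower members, and for 26.9% and 25.6% of all genes tested, or 52.5% together. Against these shares the members' counts do not set the family apart. The same shares stand beside the counts of cell type markers given below. Csf2 was too low to be tested. The median log2 fold change of the 8 was −0.03, against −0.01 over all genes tested.

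**Figure D1:**
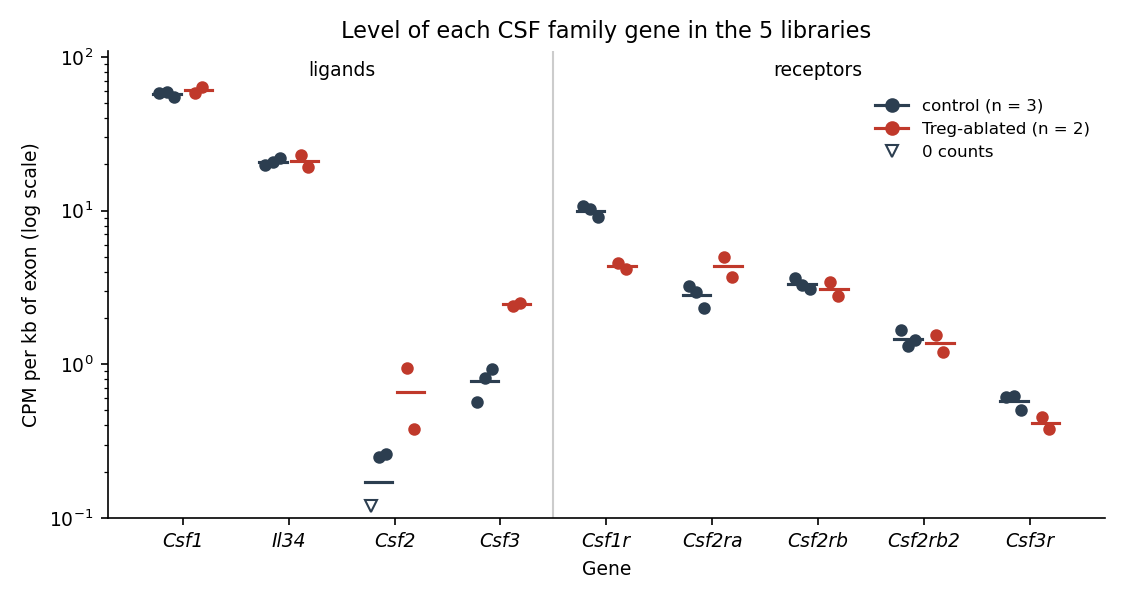
Level of each gene in each library, in CPM per kilobase of exon on a log axis, with ligands at the left and receptors at the right. Points are libraries, horizontal lines are group means, and the open triangle is the control library with 0 counts of Csf2. Csf1 and Il34 lie above every receptor, and the groups are apart for Csf1r, Csf2ra, Csf3, Csf3r and Csf2, of which Csf3r did not pass the test and Csf2 was not tested.

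Per kilobase of exon, Csf1 was the most abundant member, at 55.0 to 64.2 CPM over the 5 libraries. Il34 followed at 19.3 to 23.0 and Csf1r at 4.20 to 10.8. These 3 ranges did not overlap. Below them the ranges of Csf2ra (2.34 to 5.01 CPM per kilobase) and Csf2rb (2.77 to 3.67) overlapped. So did those of Csf3 (0.571 to 2.51) and Csf2rb2 (1.19 to 1.66). In both pairs the order turned with the group. Csf2ra was above Csf2rb, and Csf3 above Csf2rb2, in both Treg-ablated libraries, and each was below in every control. Csf3r had 0.376 to 0.624 and Csf2 0 to 0.946. By mean, Csf2 was the lowest in controls (0.171 against 0.580 for Csf3r) and Csf3r in Treg-ablated libraries (0.415 against 0.661 for Csf2). Csf1r stood above Csf2ra in 4 of 5 libraries; in Treg-ablated libraries its 4.57 and 4.20 CPM per kilobase lay among the 5.01 and 3.71 of Csf2ra.

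Csf1, the main growth factor of macrophages (ENSMUSG00000014599, chromosome 3, 107741048 to 107760469, minus strand), had 309 and 339 CPM in Treg-ablated replicates 1 and 2. The controls had 309, 311 and 290 CPM in replicates 1, 2 and 3. The groups overlapped, and the log2 change of 0.09 did not pass (SE 0.0703, edgeR adjusted p = 0.352). Il34, the other CSF1R ligand, made in the body mainly by keratinocytes and neurons (ENSMUSG00000031750, chromosome 8, 110741829 to 110805924, minus strand), had 45.0 and 37.8 CPM in Treg-ablated libraries and 38.83, 40.7 and 43.3 in controls. The 2 Treg-ablated libraries enclosed the controls, and the estimate of 0.02 on the log2 scale did not pass (SE 0.0916, adjusted p = 0.890). Counts of Csf1 exceeded those of Il34 by a ratio of 6.71 to 8.98 in the 5 libraries, with overlapping groups. Il34 shares 22 and 75 exon bases with the genes Gm15894 and Gm15895 of the opposite strand. Gm15894 itself rose from 11, 18 and 14 counts in controls to 34 and 30 (log2 fold change 1.32, SE 0.266, adjusted p = 0.00599). As counting set no strand, fragments in those bases cannot be told apart.

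Csf1r (ENSMUSG00000024621, chromosome 18, 61105572 to 61132149, plus strand) showed the clearest change of a receptor. It had 22.3 and 20.5 CPM in Treg-ablated libraries against 52.5, 50.2 and 44.2 CPM in controls. Every Treg-ablated library was below every control, with no overlap. Transcripts fell 2.28-fold (log2 change −1.19 with SE 0.0973, adjusted p = 6.79e-05). In bulk libraries, fewer cells carrying a transcript and less transcript per cell cannot be told apart. Csf1r shares 871 of its 4885 exon bases with Hmgxb3, a gene of the opposite strand, which also fell (log2 fold change −0.47, SE 0.0853, adjusted p = 0.00379). The ratio of Csf1r to Hmgxb3 counts was 0.538 and 0.424 in Treg-ablated and 0.815, 0.798 and 0.749 in control libraries, so Csf1r was lower relative to that neighbour too.

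**Figure D2:**
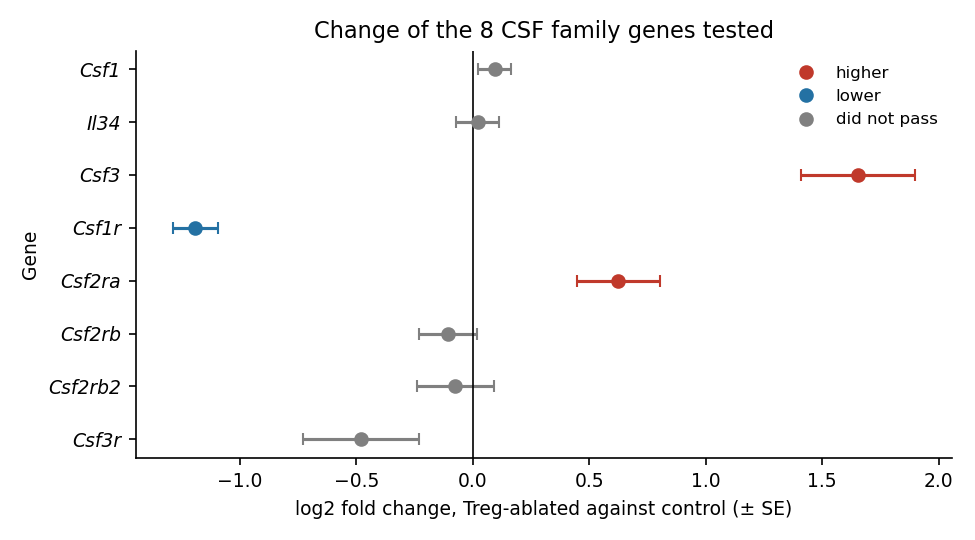
Log2 fold change of the 8 members tested, Treg-ablated against control, with 1 SE on each side. Csf1r lies at −1.19, Csf3 at 1.66 and Csf2ra at 0.62, and the other 5 did not pass.

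Other macrophage genes were lower in the same libraries. Of 20 mature macrophage markers tested, which do not include Csf1r, 14 were lower, 0 were higher and 6 did not pass, with a median log2 fold change of −0.74; against a fold of 1.5, 3 were lower. Timd4, named after its value was seen, ran the other way at under 1 CPM and did not pass (log2 fold change 1.32, adjusted p = 0.0539). With limma-voom, and without control replicate 1, 1 marker was called higher. Their summed level was 429 and 387 CPM in Treg-ablated libraries and 547 to 565 in controls. Without Lgmn, the leading gene of that sum, it was 203 and 176 against 312 to 318 CPM. Of the 23 listed genes, 0 were at 0 in every library. Folr2, Apoe, Ms4a7, Siglec1 and Trem2 had more negative estimates than Csf1r. The C1q gene C1qa (log2 fold change −1.12) and Fcgr1, an Fc receptor gene (−1.14), had estimates close to that of Csf1r. Monocyte markers, which also went with Csf1r, had 7 lower and 3 higher of 13 tested, or 4 lower without control replicate 2. Fn1, which fibroblasts also express, gave 90.4% to 91.6% of their sum. Without Fn1 it was 773 and 876 against 1045 to 1252 CPM. Most of that remainder was Vcan, with 484 and 634 CPM in Treg-ablated and 862, 770 and 681 in control libraries. It is therefore largely the level of 1 gene. Ratios within a library set Csf1r beside these cells' genes. Csf1r counts divided by the summed macrophage list were 0.0520 and 0.0530 in Treg-ablated libraries and 0.0961, 0.0889 and 0.0783 in controls, a log2 difference of −0.74. Lgmn, which did not pass, made up 41.9% to 54.5% of that sum. Without it the ratios were 0.1098 and 0.1163 against 0.165, 0.158 and 0.142, a smaller log2 difference of −0.45 with no overlap, in an alternative chosen after seeing the data. Divided by Adgre1, they were 3.77 and 3.58 against 5.39, 5.09 and 4.63, a log2 difference of −0.45. Relative to Itgam and Ptprc the log2 differences were −0.85 and −1.51. In the 4 ratios to the full list, Adgre1, Itgam and Ptprc the groups did not overlap, and the two-sided exact permutation test gave p = 0.1 (adjusted p = 0.12 over 24 ratios), the smallest p that 2 against 3 libraries allow.

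**Figure D3:**
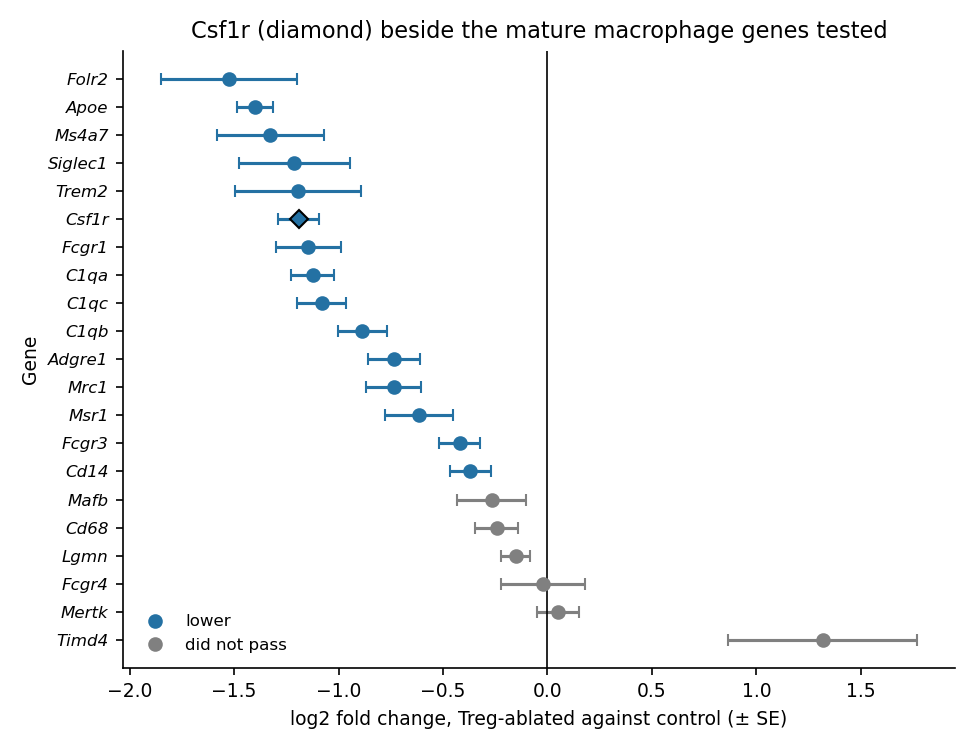
Log2 fold change with 1 SE on each side for Csf1r (diamond) and the 20 mature macrophage genes tested, sorted by size. Csf1r lies at −1.19, with 5 genes more negative, and 14 of the 20 passed as lower.

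Csf1 and Il34 did not pass and Csf1r fell, so ratios of ligand to receptor transcripts largely restate the fall of Csf1r. They were higher in both Treg-ablated libraries than in every control. There were 13.8 and 16.5 Csf1 counts for each Csf1r count in Treg-ablated libraries, and 5.88, 6.20 and 6.58 in controls. The corresponding Il34 ratios were 2.02 and 1.84 against 0.739, 0.810 and 0.980. The log2 differences were 1.28 and 1.20, with no overlap. The exact permutation test gave p = 0.1 in each case (adjusted p = 0.12 over 24 ratios), the smallest p available. The summed fibroblast markers ran from 13950 to 14680 CPM in Treg-ablated and from 13720 to 15990 in control libraries, and 11 of 20 were lower and 1 higher. Col3a1 gave 54.4% to 63.9% of these sums, and without it they were 5255 and 5295 against 6179 to 6439 CPM, lower in both Treg-ablated libraries. The part of those cells in the Csf1 and Il34 levels was not tested.

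Downstream of CSF1R, 21 genes of its signalling path were tested (median log2 fold change −0.17). Of these 6 were lower and 2 higher, beside 12.3% and 13.5% of all genes. Single libraries moved these counts: 0 were lower and 1 higher without control replicate 2, 2 were lower without Treg-ablated replicate 2 and 3 without control replicate 1, and with a GC correction 2 were lower. Inpp5d, which encodes the inositol phosphatase SHIP1, fell from 27.2 ± 1.5 CPM (SD, n = 3) to 21.3 ± 0.365 (SD, n = 2), with a log2 fold change of −0.36. Fgr, a myeloid SRC-family kinase gene, fell from 12.8 ± 1.31 to 9.03 ± 0.508 CPM (log2 fold change −0.49). Socs1, a feedback inhibitor of JAK signalling that interferon also induces, rose from 11.84 ± 1.003 to 20.0 ± 0.825 CPM (log2 fold change 0.75), and the kinase gene Fyn, which T cells also express, rose with a log2 fold change of 0.41. Among adapter genes, Shc1 and Tyrobp fell, with log2 fold changes of −0.24 and −0.47, while the values of Grb2 (0.02) and of the exchange factor gene Sos1 (−0.07) did not pass; these 4 were named after their values were seen.

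Transcription factors of macrophages, among them those known to act on Csf1r, went both ways. Of 17 tested, 5 were higher and 2 lower, beside 13.5% and 12.3% of all genes, with a median log2 fold change of 0.14. Without control replicate 2, 0 were lower, and 1 was without control replicate 1, with DESeq2 or with the GC correction. With a replicate block or without control replicate 3, 3 were lower. The 2 lower genes were Spi1, which encodes PU.1 (12.7 ± 0.367 to 8.49 ± 2.08 CPM, log2 fold change −0.56, adjusted p = 0.0179), and Cebpa (4.86 ± 1.07 to 2.74 ± 0.673 CPM, log2 fold change −0.82, adjusted p = 0.0293), both named after their values were seen. In Treg-ablated replicates 1 and 2, Spi1 had 9.96 and 7.015 CPM and Cebpa 3.215 and 2.26. Klf4, a zinc finger factor that monocytes and other cells use, increased from 44.6 ± 1.42 to 72.9 ± 3.61 CPM (log2 fold change 0.71). Egr1, an immediate-early gene, rose by a log2 fold change of 0.38, Runx1 by 0.41 and Irf8, which is also interferon-responsive, by 0.45.

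Of the GM-CSF receptor chains, Csf2ra passed as higher and Csf2rb did not pass. Csf2ra, the ligand-specific alpha chain (ENSMUSG00000059326, chromosome 19, 61224402 to 61228418, minus strand), had 9.27 and 6.86 CPM in Treg-ablated and 5.98, 5.46 and 4.32 CPM in control libraries. The groups did not overlap, though Treg-ablated replicate 2 lay close to control replicate 1. It rose 1.54-fold (log2 fold change 0.62, SE 0.178, adjusted p = 0.0276). This call was not firm: the adjusted p was 0.210 without Treg-ablated replicate 1 (log2 fold change 0.38), 0.0951 without control replicate 2, 0.0623 without control replicate 3, and 0.0767 with DESeq2.

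The beta chain Csf2rb had 16.3 and 13.2 CPM in Treg-ablated libraries against 17.5, 15.7 and 14.7 in controls, and Csf2rb2 had 7.19 and 5.51 against 7.66, 6.06 and 6.62. The groups overlapped for each gene. Log2 fold changes were −0.11 (SE 0.123, adjusted p = 0.561) and −0.08 (SE 0.166, adjusted p = 0.770), and the counts of the pair summed as 1 gene gave −0.10 (SE 0.119, adjusted p = 0.571). Csf2rb counts were 2.22 to 2.60 times those of Csf2rb2 in the 5 libraries. Between the chains, counts of Csf2ra divided by the sum of the beta chains were 0.394 and 0.367 in Treg-ablated and 0.238, 0.251 and 0.203 in control libraries. The groups did not overlap, and the log2 difference was 0.73. The exact permutation test gave p = 0.1 (adjusted p = 0.12 over 24 ratios), the smallest p available. The sum of the beta chains includes Csf2rb2, whose product pairs with the IL-3 receptor alpha chain. Relative to Adgre1, Itgam and the macrophage list Csf2ra was higher without overlap (log2 differences 1.35, 0.95 and 1.07), but relative to Ptprc the groups overlapped (0.30, exact permutation p = 0.5).

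**Figure D4:**
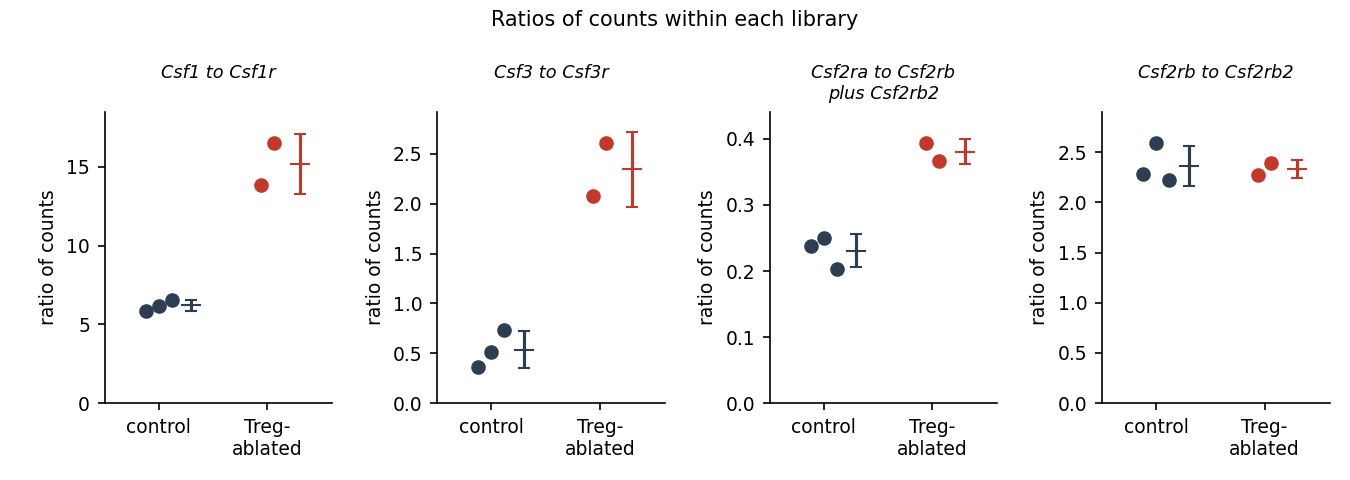
Ratios of counts within each library for 4 gene pairs, with an axis from 0. Points are libraries, and bars beside them are the mean and SD of each group (n = 3 control, n = 2 Treg-ablated). The groups are apart for Csf1 to Csf1r, Csf3 to Csf3r and Csf2ra to the beta chains, and overlap for Csf2rb to Csf2rb2.

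Csf2, the GM-CSF gene itself (ENSMUSG00000018916, chromosome 11, 54247271 to 54249667, minus strand), had 12 and 4 counts in Treg-ablated and 0, 4 and 3 counts in control libraries. A count of 3 corresponds to between 0.1502 and 0.226 CPM per library, so Csf2 was near that limit in all but the first of these. The ratio of summed counts per scaled total was 3.86, with an exact 95% interval of 1.503 to 11.1 that covers counting error only and no spread between libraries. In CPM, Csf2 had 0.757 and 0.302 in Treg-ablated libraries and 0, 0.200 and 0.209 in controls, so the scaled values did not overlap, although Treg-ablated replicate 2 and control replicate 2 had 4 counts each. Csf2 shares 96 of its 800 exon bases with Gm12223 of the opposite strand, which had at most 1 count in any library. T cells are a known source of GM-CSF, and 17 T cell markers summed to 93.1 and 98.5 CPM in Treg-ablated libraries and 36.5 to 46.1 in controls, with 15 of them higher and 0 at 0 in every library. Without Thy1, which is also a fibroblast marker, the sums were 65.6 and 74.1 against 17.9 to 23.0 CPM. Mast cell and eosinophil markers summed to 47.2 and 49.9 against 22.4 to 31.0 CPM, with 6 of 8 tested higher and Epx at 0 everywhere. Their part in the Csf2 counts was not tested.

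Among genes known to respond to GM-CSF, 6 of 12 tested were higher and 2 lower, beside 13.5% and 12.3% of all genes. The median log2 fold change was 0.49. Of the 6 higher, Cish and Pim1 are also counted in the beta chain path below, so the 2 counts are not separate. DESeq2 called 3 higher and 1 lower. Leaving out control replicate 2 gave 3 higher and 0 lower, and leaving out Treg-ablated replicate 1 gave 1 lower. Ccl22, a chemokine gene that dendritic cells and macrophages express, increased from 9.86 ± 0.804 to 16.4 ± 0.278 CPM (log2 fold change 0.73, adjusted p = 0.00170). The transcription factor gene Bhlhe40 rose from 109 ± 3.94 to 147 ± 3.87 CPM (0.44), and the kinase gene Pim1, a STAT5 target, from 32.9 ± 0.951 to 45.5 ± 3.82 CPM (0.47). Chil3, a chitinase-like gene of monocytes and alveolar macrophages, fell from 15.1 ± 1.98 to 7.89 ± 3.37 CPM (−0.91). Of 11 dendritic cell markers tested, some of which are in this list too, 2 passed as higher and 1 as lower. Their sum was 508 and 489 CPM in Treg-ablated libraries against 504 to 545 in controls, but 82.2% to 86.6% of it was Fscn1, which other cells also express. Without Fscn1 the sum was 90.4 and 86.3 CPM in Treg-ablated and 73.1 to 78.4 in control libraries. Their part in the list was not tested.

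Of 15 signalling genes of the beta chain path tested, 3 were higher and 3 lower, beside 13.5% and 12.3% of all genes, with a median log2 fold change of 0.14. With the GC correction 5 were higher and 0 lower. The number of lower genes was 0 with Treg-ablated replicate 1 or control replicate 2 left out, or with a replicate block, and 1 with any other single library left out. Cish, a STAT5-induced inhibitor, rose from 2.29 ± 0.630 to 4.18 ± 0.151 CPM (log2 fold change 0.87, adjusted p = 0.0203), and Socs1 and Pim1 are the other 2 higher members. Shc1, an adapter gene that CSF1R also uses, fell from 204 ± 8.97 to 172 ± 6.21 CPM (−0.24). The IL-3 receptor alpha gene Il3ra had 17.3 ± 0.632 against 14.96 ± 2.754 CPM and did not pass (log2 fold change 0.21), Il5ra was too low to be tested, and Il3 had 0 counts in every library.

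Csf3 had the largest rise of the family. The G-CSF gene (ENSMUSG00000038067, chromosome 11, 98701263 to 98703629, plus strand) had 54 and 47 counts in Treg-ablated libraries and 12, 23 and 19 counts in controls. In CPM these were 3.40 and 3.55 against 0.806, 1.15 and 1.32. Each Treg-ablated library lay well above each control, with no overlap. It rose 3.15-fold (log2 fold change 1.66, SE 0.245, adjusted p = 0.00151), from a level among the lowest of the family. Fibroblasts, endothelial cells and macrophages are known sources of G-CSF. The fibroblast and macrophage sums, with and without their leading gene, are given above, as is the sum of epithelial tumour markers. The 10 endothelial markers summed to 19.6 and 18.4 CPM in Treg-ablated libraries and 20.8 to 23.4 in controls, with 0 of 6 tested passing. Egfl7 gave 34.8% to 46.8% of these sums. Without it they were 11.7 and 10.6 against 11.1 to 14.9 CPM, and the groups overlapped. The part of these cells was not tested.

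Its receptor gene Csf3r (ENSMUSG00000028859, chromosome 4, 126024550 to 126044440, plus strand) had 1.64 and 1.36 CPM in Treg-ablated and 2.22, 2.25 and 1.81 CPM in control libraries. Every Treg-ablated library was below every control, but with 18 to 45 counts per library the log2 change of −0.48 did not pass (SE 0.250, adjusted p = 0.182). Csf3r is carried by neutrophils and some monocytes. Most neutrophil markers were low, with a library's median over 14 of 0.244 to 0.490 CPM. Elane, Mpo, Camp, Ngp and Ly6g averaged under 1 CPM in each group. Il1r2 averaged 8.45 CPM in Treg-ablated and 7.85 in control libraries, and Retnlg 6.71 and 4.47. The summed level of all 14 was 46.2 and 41.9 CPM in Treg-ablated libraries against 29.4 to 37.3 in controls. Of this, Mmp9, which other cells also express, gave 25.1 CPM in Treg-ablated and 18.1 CPM in control libraries on average. Without Mmp9 the sum was 20.9 and 17.0 against 14.6 to 16.1 CPM, with no overlap. In this list Mmp9 and Retnlg, 2 of 5 tested, were higher; 0 were called when Treg-ablated replicate 1 or control replicate 1 was left out, and 1 when control replicate 2 was. Their part in the Csf3r and Csf3 results was not tested. The ratio of Csf3 to Csf3r counts was 2.08 and 2.61 in Treg-ablated and 0.364, 0.511 and 0.731 in control libraries, a log2 difference of 2.18 with an exact permutation p of 0.1.

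Of 9 tested genes of the G-CSF receptor path, 1 was higher and 1 lower, beside 13.5% and 12.3% of all genes. Cebpb, a transcription factor gene of emergency neutrophil production, rose from 34.6 ± 8.08 to 54.2 ± 2.88 CPM (log2 fold change 0.64, adjusted p = 0.0113). Stat5b fell from 67.8 ± 1.90 to 57.7 ± 0.690 CPM (−0.23, adjusted p = 0.0303), a call that ended under DESeq2 and a replicate block, with the GC correction, and with any 1 library left out other than control replicate 3. Stat3, the main transducer of this receptor, did not pass (log2 change 0.14, SE 0.0632, adjusted p = 0.118), and neither did its target Socs3 (0.17, adjusted p = 0.0832). Without Treg-ablated replicate 1, 2 genes of this path were higher, and with the GC correction 3.

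**Figure D5:**
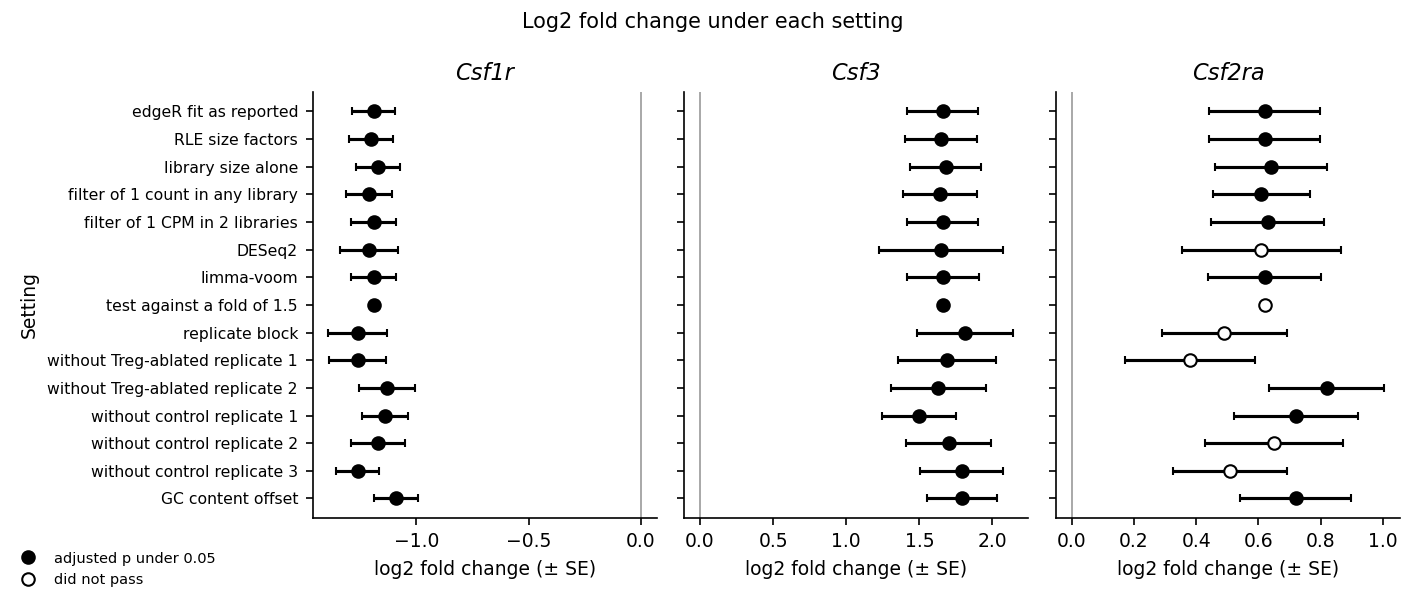
Log2 fold change of Csf1r, Csf3 and Csf2ra in the reported edgeR fit and under 14 alternatives, with 1 SE on each side where the fit gives it. Filled points passed an adjusted p of 0.05. Csf1r and Csf3 passed in every setting, and Csf2ra in 8 of the 14 alternatives.

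Other blood cell growth factors and receptors offered a comparison outside the family. Of 13 tested, 4 were higher and 1 lower (median log2 fold change 0.15), beside 13.5% and 12.3% of all genes. Without control replicate 2, 0 were higher, and DESeq2 called 2. Il7r, the receptor gene for IL-7 on lymphocytes, increased from 1.03 ± 0.239 to 2.42 ± 0.307 CPM (log2 fold change 1.26). Il6 rose from 3.036 ± 0.3301 to 5.27 ± 0.229 CPM (0.80) and Kit, the stem cell factor receptor carried by mast cells, from 2.40 ± 0.366 to 4.142 ± 0.3297 CPM (0.79). Sdc1, a syndecan gene whose product binds IL-34, fell from 339 ± 13.5 to 253 ± 13.9 CPM (−0.42, adjusted p = 0.00261). Ptprz1, which encodes another IL-34 receptor, had 0 counts in every library.

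The profile of a member over the 5 libraries can also be set beside those of all other genes. Likeness was the root mean square difference of log2 CPM after each gene's own mean over the 5 libraries was removed, so that 0 means an identical profile, and it was taken over 9250 or 9251 genes with a mean of at least 8 CPM. Nearest to Csf1r was Ccr2, the chemokine receptor gene of inflammatory monocytes, with a difference of 0.0737 and 36.3 CPM in controls against 15.4 in Treg-ablated libraries. Cd93 followed at 0.0862 and C1qa at 0.0886, and these 3 were the only genes within 0.1. Csf3 had no gene within 0.1; nearest were the interferon-induced chemokine gene Cxcl10 at 0.181, Apol6 at 0.190 and Nos2, which encodes inducible nitric oxide synthase, at 0.197. Csf2ra lay closest to Ccdc191 (0.0899), Fgl2 (0.101) and Clec7a (0.101). The members that did not pass had many near neighbours, with 2494 genes within 0.1 of Csf1, 1582 of Il34, 134 of Csf2rb, 44 of Csf3r and 35 of Csf2rb2. Their nearest genes were Cdc14b for Csf1, Fth1 for Il34, Ctsc for Csf2rb, Nfatc2ip for Csf2rb2 and Tango6 for Csf3r. Over 5 libraries in 2 groups, genes with a similar group difference lie near each other by construction, so nearness says no more than that.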

How the data were processed

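RNA-seq gene counts were read for 5 libraries, grouped and numbered by their titles. The deposited counts are whole fragments over exons, added up by gene. Per the file headers they come from featureCounts 1.6.2 without a strand option, using Ensembl 83 (filtered) on GRCm38. Per the labels, the kit was stranded. Exon lengths in bases (other values) were deposited beside them. Symbols were joined by Ensembl identifier from GENCODE M21. Genes kept by filterByExpr (14580) were tested in R 4.3.3 by edgeR 4.0.16 (TMM scaling, quasi-likelihood F test) without a block, with Benjamini-Hochberg adjustment over all genes and a threshold of 0.05. An SE is the absolute log2 change over √F, and CPM use TMM-scaled totals.

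The members and lists were chosen with earlier results of these data known. Up to 4 genes per pathway list were named by smallest p, and 3 most like each member with at least 1 CPM. Flt3l had no match. Ratios of counts were tested by exact permutation. Alternatives were other scalings and filters, DESeq2 1.42.0, limma-voom (limma 3.58.1), a fold of 1.5, a replicate block, each library left out, a GC offset from GENCODE transcripts (99.7% of genes) and paralogs summed. Leaving out a Treg-ablated library leaves 1, assumed to vary like the controls. Replicates differed beyond sampling noise (chi-square per degree of freedom 4.16 to 7.67). In simulated counts for this comparison over 14332 genes, 200 genes with a mean of at least 1 CPM were changed. Of these, 67.2% of genes changed 1.5-fold, 86.6% changed 2-fold and 98.5% changed 4-fold were recovered. Unchanged genes made up 7.69% of calls. In the data 25.8% of genes were called, a far larger share than was changed here, so these rates may not carry over. Intervals cover counting error only.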

Additional observations from a re-analysis of the deposited data

How the results depend on the processing

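Csf1r and Csf3 passed in the same direction under all 14 alternatives, with log2 fold changes from −1.26 to −1.09 and from 1.5 to 1.81. Csf2ra kept its direction (0.38 to 0.82), and passed in 8. It did not pass with DESeq2, against a fold of 1.5, with a replicate block (log2 fold change 0.49, adjusted p = 0.0782) or without any of 3 libraries, so that 1 member was higher in those settings instead of 2; leaving out libraries gave 1 to 2. Csf1 and Csf3r passed in none. Csf2 passed (1.87, adjusted p = 0.0498) when every gene with 1 count was kept, and could not be fitted in most settings. Signs turned for members that did not pass: Il34 reached −0.11 to 0.14, Csf2rb −0.27 to 0.04 and Csf2rb2 −0.29 to 0.10 as libraries were left out, and with the GC offset Csf2rb had 0.00 and Csf2rb2 0.05. Relative to the macrophage list Csf2rb differed by 0.34, but by −0.44 relative to Ptprc. Without Lgmn, chosen after seeing the data, the 4 members set against that list kept their direction (Csf1r −0.45, Csf2ra 1.35, Csf3 2.44, Csf2rb 0.62). Over all genes, 1971 were higher and 1787 lower. DESeq2 called 1215 higher, the test against a fold of 1.5 called 98 and 23, and the replicate block 1296 and 1116. Leaving out libraries gave 812 to 1687 higher and 554 to 1538 lower, lowest without control replicate 2. Of the pathway genes 17 were higher and 13 lower, 0 and 0 against a fold of 1.5, 7 lower with the GC offset, and 8 to 18 higher and 1 to 12 lower when libraries were left out. Of the marker genes 48 were higher and 33 lower, and 24 and 7 against a fold of 1.5. Same-numbered libraries deviated from their group means with correlations of −0.23 and −0.02. The deviations of 2 Treg-ablated libraries mirror each other, so these values cannot decide whether samples are paired. No source states that the title numbers, which the block uses, pair the samples. The block is therefore given only as an alternative. The deposited files number the Treg-ablated libraries differently from the titles, and a pairing by those numbers was not tested. Members with under 60 counts per library, Csf2, Csf3 and Csf3r, are limited by depth.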
